A study of Homo sapiens with 6 samples.

Results

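The AN1 zinc finger family of HCT116 cells, a human colon carcinoma line, is described here through its 7 ZFAND genes, which are 7 of the 35106 genes in the deposited count table. They are the rows named ZFAND1, ZFAND2A, ZFAND2B, ZFAND3, ZFAND4, ZFAND5 and ZFAND6, and all 7 were found and passed the filter on low counts. The family was chosen by the level of 1 member, since the large difference of ZFAND2A between curcumin-treated and untreated cells had been seen before it was taken up. The values of the 7 genes in this contrast are therefore a description, with no test of the members. RNA was sequenced from cells given 30 µM curcumin, the yellow polyphenol of turmeric, for 24 h (3 libraries), and from cells with no treatment (3 libraries). The labels print the unit of the dose as micrometres, it is read here as µM, and a solvent control is not named. All 6 libraries come from 1 line labelled WT. Nothing says that the replicates were separate cultures, so errors and p-values here describe the spread among these libraries alone, which may be technical.

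ZFAND proteins share the AN1 zinc finger, a zinc-binding fold found beside ubiquitin-binding and ubiquitin-like modules. Several of them connect ubiquitinated cargo to p97, the ATPase that pulls proteins out of complexes and membranes (gene VCP), or to the proteasome. ZFAND2A, also called AIRAP, is the arsenite- and heat-inducible member and is a known target of the heat shock factor HSF1. ZFAND2B (AIRAPL) is its constitutive, endoplasmic reticulum-associated relative, and ZFAND1 acts with p97 at arsenite-induced stress granules. ZFAND5 (ZNF216), ZFAND6 (AWP1) and ZFAND3 carry an A20-type finger besides AN1, and ZFAND4 carries a ubiquitin-like domain.

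The library totals ran from 16663562 to 17893056 counts after curcumin and from 18154380 to 20311769 counts in untreated cells, and no member had fewer than 79 counts in any library. A few genes weighed more after curcumin: the top 100 took 39.9 to 43.3% of counts in those libraries and 18.9 to 22.7% in untreated ones. The TMM scaling factors, which edgeR sets so that most genes do not shift, were 0.716 to 0.804 after curcumin and 1.30 to 1.34 in untreated cells. Levels are TMM-normalised CPM (counts scaled to a common library size), and each is relative to the other transcripts of its library, so that fewer cells expressing a gene and less of its RNA per cell cannot be told apart. Curcumin replicate 3 stood further from the other two curcumin libraries than they did from each other, with a chi-square over degrees of freedom of 41.3 and 32.9 against 11.1. Untreated replicate 2 stood further still from the other two untreated libraries, at 60.6 and 71.2 against 18.8. Of 8 colon epithelial markers, 7 passed the filter and all 8 together summed to 7282 to 8490 CPM after curcumin and 4145 to 4861 CPM in untreated cells, while VIL1 stayed under 1 CPM in every library. Those sums were mostly KRT8, KRT18 and KRT19, and the markers did not move as one. EPCAM and the 3 keratins were called higher and CDH1 was not called. CLDN4 was called lower (41.98 CPM after curcumin and 327 CPM in untreated cells), as was CDX2 (9.64 CPM after curcumin and 25.4 CPM in untreated cells). The 10 markers of other cell types summed to 42.9 to 101.5 CPM after curcumin and 29.5 to 36.01 CPM in untreated cells. Of those 10, CD3E was at 0 in all 6 libraries, whereas PECAM1 had 6.65, 13.0 and 25.0 CPM after curcumin and 0, 0.123 and 0.157 CPM in untreated cells. CD68 was also called higher (21.7 CPM after curcumin and 2.76 CPM in untreated cells), and so was GFAP at low levels (1.20 CPM after curcumin and 0.198 CPM in untreated cells). VWF and COL1A1 were not called, COL1A1 averaging 22.9 CPM after curcumin and 28.6 CPM in untreated cells, and the remaining markers did not pass the filter. The part of these markers in the ZFAND values was not tested.

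The start regions of 6 members were taken from the RefSeq promoter table (GRCh38.p14). They are 14 windows that each run from 250 bases before a transcript start to 50 bases after it. ZFAND2A, its closest relative ZFAND2B, and ZFAND5, the member with the highest CPM in untreated cells, are printed 5′ to 3′ on the gene's strand. Of the ZFAND5 windows, the first listed is printed. Capitals mark matches, on either strand, to 4 kinds of motif: the heat shock element bound by HSF1 (3 alternating GAA and TTC units, or 2 units as GAANNTTC or TTCNNGAA), the CCAAT box (CCAAT), the cAMP response element (TGACGTCA) and a core of the antioxidant response element bound by NRF2 (TGACNNNGC). The last 3 were added after the sequences had been seen. The windows are chr7:1160147-1160446 (minus strand) for ZFAND2A, chr2:219206532-219206831 (plus strand) for ZFAND2B and chr9:72365159-72365458 (minus strand) for ZFAND5. Those of ZFAND2A and ZFAND2B lie inside the genes as annotated in GENCODE 29, whose 5′ ends are at 1160759 and 219195237.
ZFAND2A: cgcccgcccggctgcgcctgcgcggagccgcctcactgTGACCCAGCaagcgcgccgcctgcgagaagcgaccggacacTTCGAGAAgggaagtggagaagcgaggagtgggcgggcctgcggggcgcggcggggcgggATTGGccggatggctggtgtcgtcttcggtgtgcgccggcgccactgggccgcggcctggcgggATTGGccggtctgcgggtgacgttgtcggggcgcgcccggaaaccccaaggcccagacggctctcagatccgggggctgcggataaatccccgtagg
ZFAND2B: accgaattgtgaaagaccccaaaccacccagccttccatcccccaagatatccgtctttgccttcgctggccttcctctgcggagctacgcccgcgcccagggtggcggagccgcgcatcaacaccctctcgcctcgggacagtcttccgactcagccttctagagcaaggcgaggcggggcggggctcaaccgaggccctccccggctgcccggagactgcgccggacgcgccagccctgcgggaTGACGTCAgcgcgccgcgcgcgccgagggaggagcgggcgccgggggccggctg
ZFAND5: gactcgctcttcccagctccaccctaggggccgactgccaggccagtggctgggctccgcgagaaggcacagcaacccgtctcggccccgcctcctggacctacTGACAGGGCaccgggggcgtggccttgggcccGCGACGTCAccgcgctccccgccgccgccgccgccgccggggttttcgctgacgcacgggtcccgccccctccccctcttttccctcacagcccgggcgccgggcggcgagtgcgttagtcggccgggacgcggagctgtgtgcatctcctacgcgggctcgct

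In the ZFAND2A window a 2-unit heat shock element (TTCGAGAA) began at position -171, counted from the first transcribed base as +1. It was the only heat shock element in any of the 14 windows, and none of these windows held the 3-unit form. No window of ZFAND1 was searched, so whether its start region holds any of these motifs was not tested. Of all 35116 promoter windows in the table, 0.49% held the 3-unit form and 13.5% a 2-unit form in either order. The same window held an antioxidant response core at -212 and reversed CCAAT boxes at -111 and -47, motifs present in 13.3 and 34.6% of all windows. ZFAND2B held none of these and had a full cAMP response element at -4, found in 1.85% of windows. The printed ZFAND5 window had antioxidant response cores at -146 and -114. Its other windows overlap each other, had no such core and held the same CCAAT box, at -55 or -19 depending on the start. The first listed windows of ZFAND4 and ZFAND6 each carried a pair of CCAAT boxes, ZFAND6 also an antioxidant response core, and the ZFAND3 window carried no match. These first windows were GC-rich throughout the 6 genes, from 68.0% in ZFAND4 to 75.0% in ZFAND3, against a median of 62.3% over windows of protein-coding genes. A match is only a match of letters and says nothing of binding in these cells.

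**Figure D1:**
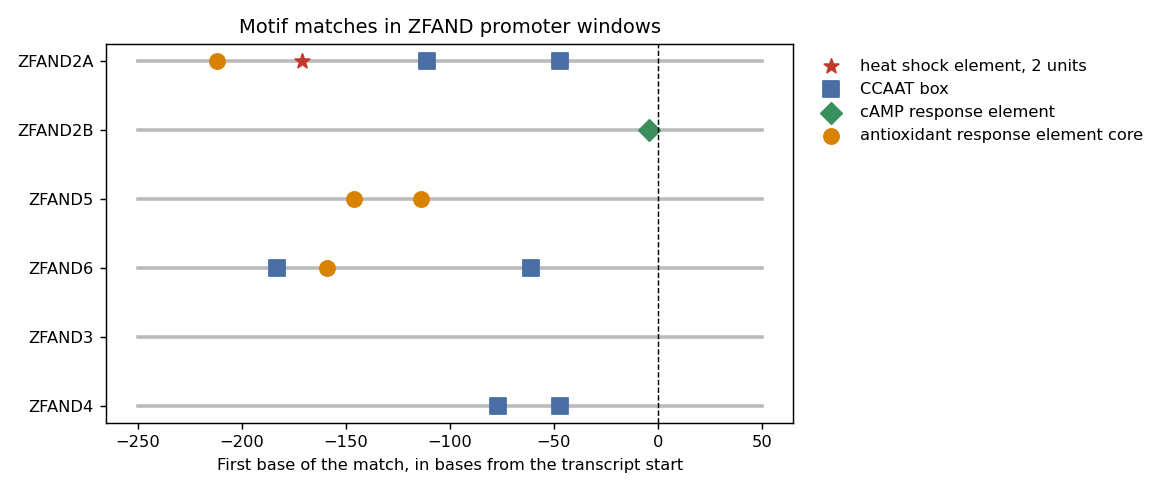
Motif matches in the first listed promoter window of 6 ZFAND genes; the horizontal axis is the position of the first base of each match from the transcript start (dashed line), in bases, and each grey line is 1 window. The star of the 2-unit heat shock element stands in the ZFAND2A window alone, at -171, and the ZFAND3 window is empty.

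ZFAND2A had by far the largest fold difference of the 7 members between curcumin-treated and untreated cells. It lies on chromosome 7, 1152071 to 1160759 on the minus strand (ENSG00000178381, GENCODE 29, GRCh38), with 6 exons in its longest coding transcript of 968 bases. Its level was 296, 340.5 and 602 CPM in curcumin replicates 1, 2 and 3, and 6.11, 6.46 and 6.02 CPM in untreated replicates 1, 2 and 3. Every curcumin library stood far above every untreated one, and curcumin replicate 3 was the highest. The untreated libraries were the most alike of any member, with a highest over lowest ratio of 1.07, while the curcumin libraries spread over a ratio of 2.04. As deposited, these were 3955, 4290 and 7696 counts after curcumin and 161, 157 and 153 counts in untreated cells. The means were 413 ± 165 CPM after curcumin and 6.19 ± 0.231 CPM in untreated cells (SD, n = 3 each), a fitted fold of 66.6 and a log2 fold change of 6.06 ± 0.30 (standard error). Among the 13718 genes tested this log2 fold change was the 92nd highest. Without curcumin replicate 3 it was 5.69, and it was 5.23 when libraries were scaled by their totals alone. An antisense gene, AC091729.3, overlaps the 5′ end of ZFAND2A in GENCODE 29 and is not analysed here. Since the use of strand in counting is not stated, reads of the pair cannot be told apart.

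ZFAND2B, whose product works at the endoplasmic reticulum translocation site, was also higher after curcumin, but by far less. It had 31.5, 26.7 and 19.9 CPM in the 3 curcumin libraries and 9.97, 12.5 and 9.49 CPM in the 3 untreated ones. All curcumin values lay above all untreated values, and here curcumin replicate 3 was the lowest of its group, the opposite of ZFAND2A. The means were 26.05 ± 5.80 CPM after curcumin and 10.6 ± 1.597 CPM in untreated cells, and the log2 fold change was 1.29 ± 0.22. Set per kilobase of the longest coding transcript, ZFAND2A stood at 19.6, 26.6 and 63.01 times ZFAND2B in the curcumin libraries and at 1.28, 1.08 and 1.33 times in the untreated ones. With the summed length of all exons the ratios were 13.99, 18.95 and 44.9 in the curcumin libraries and 0.911, 0.771 and 0.945 in the untreated ones. The pair was thus far apart in treated cells and near parity in untreated ones, and which was higher in untreated cells depended on the length used.

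ZFAND1, the p97 partner at stress granules, had 97.8, 90.3 and 92.2 CPM after curcumin and 58.6, 33.03 and 60.3 CPM in untreated cells. The groups did not overlap, the curcumin libraries lay close together, and untreated replicate 2 was well below the other two untreated libraries. The log2 fold change was 0.88 ± 0.22, and 0.64 without untreated replicate 2. The 5′ part of ZFAND1 on chromosome 8 (81701334 to 81732903) overlaps CHMP4C on the opposite strand. CHMP4C, a membrane-remodelling subunit, had 10.9 CPM after curcumin and 14.03 CPM in untreated cells and was not called (edgeR adjusted p = 0.33). It was called lower with library size alone (adjusted p = 0.0039), and likewise after removal of the length trend (adjusted p = 0.048).

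Among the members with an A20-type finger, ZFAND5 was the most abundant. ZFAND5 binds ubiquitin chains and raises the activity of the proteasome. It had 233, 298 and 535 CPM in curcumin replicates 1, 2 and 3, and 183, 165 and 169 CPM in the untreated libraries. The groups did not overlap, but curcumin replicate 3 stood well above the other two, as it did for ZFAND2A. The means were 356 ± 159 CPM after curcumin and 172 ± 9.49 CPM in untreated cells, with a log2 fold change of 1.05 ± 0.26. Without curcumin replicate 3 the log2 fold change was 0.63, and the mean of curcumin replicates 1 and 2 was 266 CPM.

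ZFAND6, which binds TRAF2 and takes part in recycling the peroxisomal import receptor PEX5, had 62.04, 62.8 and 54.4 CPM after curcumin and 39.3, 36.1 and 36.4 CPM in untreated cells. Both groups were tight and did not overlap, and the log2 fold change was 0.68 ± 0.14. Its processed pseudogene ZFAND6P1 was listed at 0 in all 6 libraries. ZFAND3, a nuclear member that acts in the transcription of the insulin gene in human beta cells, had 101.8, 93.1 and 86.5 CPM after curcumin and 72.95, 59.2 and 84.3 CPM in untreated cells. The groups were separated by a narrow gap, between curcumin replicate 3 and untreated replicate 3, and the log2 fold change was 0.38 ± 0.16.

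ZFAND4 was the one member lower after curcumin, and the least abundant in both groups per kilobase. It had 6.88, 6.67 and 6.18 CPM after curcumin and 8.001, 9.58 and 10.2 CPM in untreated cells. The groups did not overlap, and the log2 fold change was -0.49 ± 0.23. In deposited counts it had 79 to 92 after curcumin and 211 to 258 in untreated cells, the lowest of the family after curcumin.

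**Figure D2:**
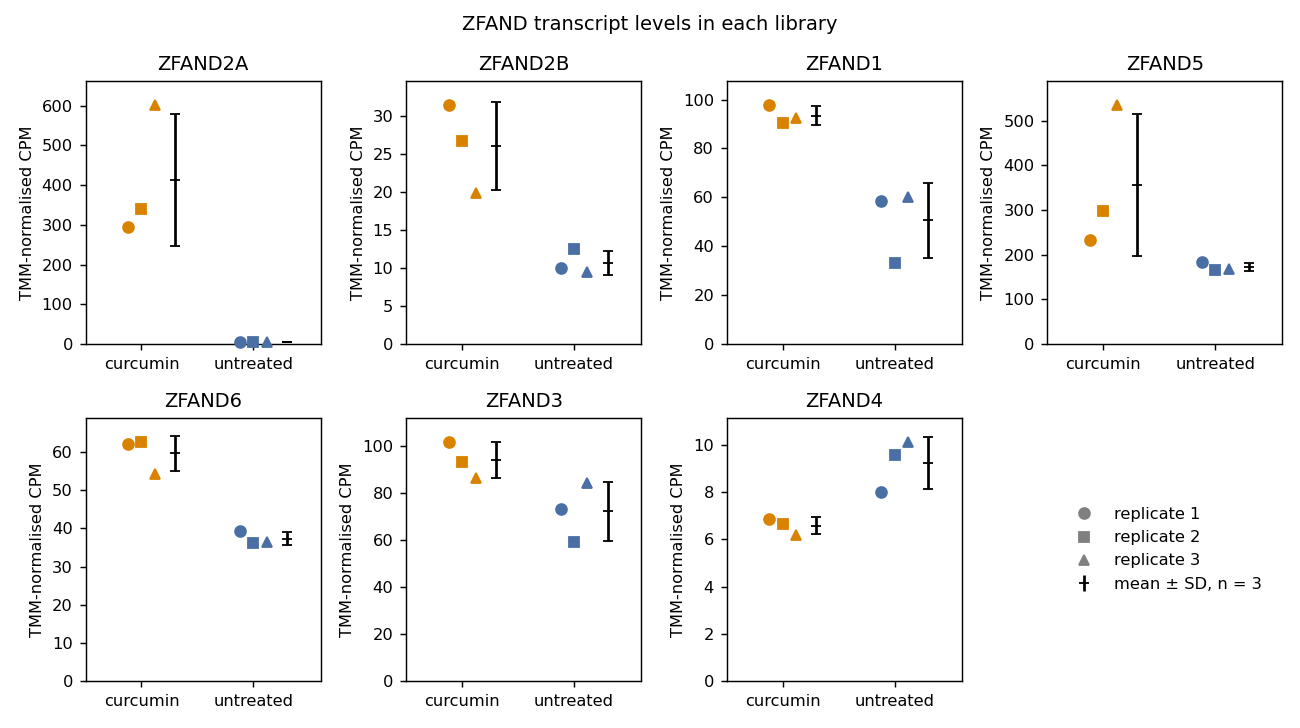
TMM-normalised CPM of each ZFAND gene (vertical axis, linear, from 0) in 3 curcumin libraries (orange, left) and 3 untreated libraries (blue, right), with symbols for the replicate numbers and bars for the mean ± SD. ZFAND2A spans 296 to 602 CPM after curcumin against about 6 CPM in untreated cells, and curcumin replicate 3 (triangle) is highest for ZFAND2A and ZFAND5 and lowest of the curcumin libraries for ZFAND2B, ZFAND3, ZFAND4 and ZFAND6.

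By the call used for all genes (edgeR's quasi-likelihood test, Benjamini-Hochberg adjusted p under 0.05), 5 of the 7 members were called higher and 0 lower; ZFAND3 and ZFAND4 were not called. Of all tested genes 27.2% were called higher and 28.9% lower, 56.1% together. In TMM-normalised CPM every curcumin library lay above every untreated one in 6 members, and below every untreated one in 1. Over all tested genes these shares were 30.9% and 33.1%, or 64.0% together. Because ZFAND2A led to the choice of the family, nothing is read from these counts. The median log2 fold change of the 7 members was 0.88, and that of all 13718 tested genes -0.04.

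The scaling decided how the smaller differences read. With libraries scaled by their totals alone the median of all genes was -0.84. One member (ZFAND2A) was then called higher and 1 (ZFAND4) lower, where 9.62% of all tested genes were called higher and 56.5% lower. ZFAND2A stood at 5.23 ± 0.26 and ZFAND2B at 0.50 ± 0.24, while ZFAND5 and ZFAND1 were at 0.22 and 0.08. ZFAND6 turned to -0.12 ± 0.17 and ZFAND3 to -0.42 ± 0.18, both still above the median of all genes under that scaling, and ZFAND4 stood at -1.30, below it. In CPM by library totals the groups overlapped for ZFAND1, ZFAND2B, ZFAND3, ZFAND5 and ZFAND6. Only ZFAND2A and ZFAND4 kept them apart. The share of all tested genes with groups apart was not computed for this scaling, so nothing is read from this about the members. With any trend of the counts with transcript length removed from each library, ZFAND2A, the shortest member, was at 5.07 and ZFAND5, the longest, at 1.46. ZFAND2B was at 0.93, ZFAND3 at 0.46, ZFAND1 at 0.42, ZFAND6 at 0.23 and ZFAND4 at -0.30. Members called higher then numbered 4, with ZFAND1 and ZFAND6 no longer called and ZFAND3 called, where 25.2% of all tested genes were called higher and 22.6% lower. The difference in ZFAND2A was thus many-fold under each of these scalings, whereas the directions of ZFAND3 and ZFAND6 depended on the scaling.

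**Figure D3:**
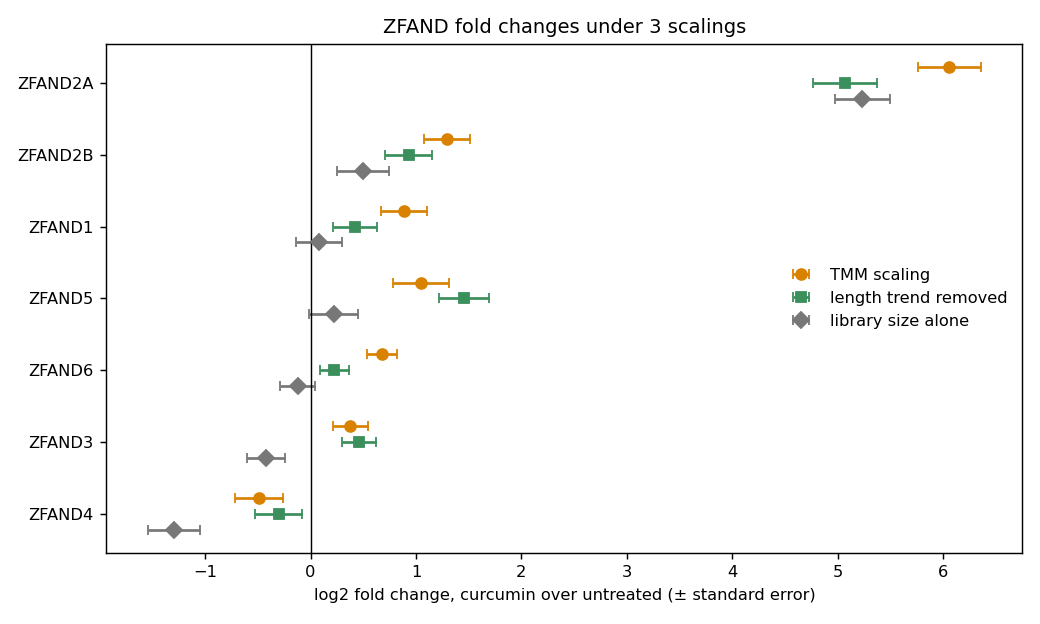
Log2 fold change of curcumin over untreated (horizontal axis, ± standard error) for the 7 ZFAND genes under TMM scaling (orange circles), with the length trend removed (green squares) and with library size alone (grey diamonds). ZFAND2A lies between 5.07 and 6.06 in all 3, and the grey diamonds of ZFAND6, ZFAND3 and ZFAND4 lie left of 0.

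Per kilobase of the longest coding transcript, the order of levels differed between the groups. After curcumin ZFAND2A came first at 426 ± 171 CPM per kilobase, followed by ZFAND5 at 66.95 ± 29.9, ZFAND1 at 51.97 ± 2.15, ZFAND6 at 32.9 ± 2.55, ZFAND3 at 27.9 ± 2.28, ZFAND2B at 12.9 ± 2.87 and ZFAND4 at 1.72 ± 0.0941. In that order the ranges of ZFAND5 and ZFAND1 overlapped, and so did those of ZFAND6 and ZFAND3. In untreated cells ZFAND5 came first at 32.4 ± 1.79 CPM per kilobase, and ZFAND1 (28.2 ± 8.49), ZFAND3 (21.4 ± 3.74) and ZFAND6 (20.6 ± 0.961) followed with ranges that overlapped from one to the next. ZFAND2A at 6.40 ± 0.239, ZFAND2B at 5.27 ± 0.790 and ZFAND4 at 2.42 ± 0.292 were the lowest, with no overlap between neighbours. With the summed length of all exons in place of the transcript, ZFAND2A was still first after curcumin and was below ZFAND2B in untreated cells, with overlapping ranges.

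The pool of ZFAND transcripts was therefore made up differently. ZFAND2A held 62.9, 65.7 and 73.9% of the family's summed CPM per kilobase in the curcumin libraries and 5.10, 6.52 and 5.02% in the untreated ones. ZFAND5 held 10.5 ± 1.47% after curcumin and 27.95 ± 2.38% in untreated cells, although its own level was higher after curcumin. The summed level of all 7 was 621 ± 192 CPM per kilobase after curcumin and 117 ± 12.5 in untreated cells. Leaving ZFAND2A out, the other 6 summed to 194 ± 21.7 CPM per kilobase after curcumin and 110.2 ± 12.7 in untreated cells. That gap rested on the scaling: with library size alone the other 6 summed to 146 ± 9.57 CPM per kilobase after curcumin and 146 ± 15.3 in untreated cells, and all 7 to 464 ± 119 after curcumin and 154 ± 14.9 in untreated cells. The shares do not depend on the scaling but do on the length: with all exons ZFAND2A held 55.5, 58.05 and 65.9% in the curcumin libraries and 3.70, 4.65 and 3.61% in the untreated ones.

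**Figure D4:**
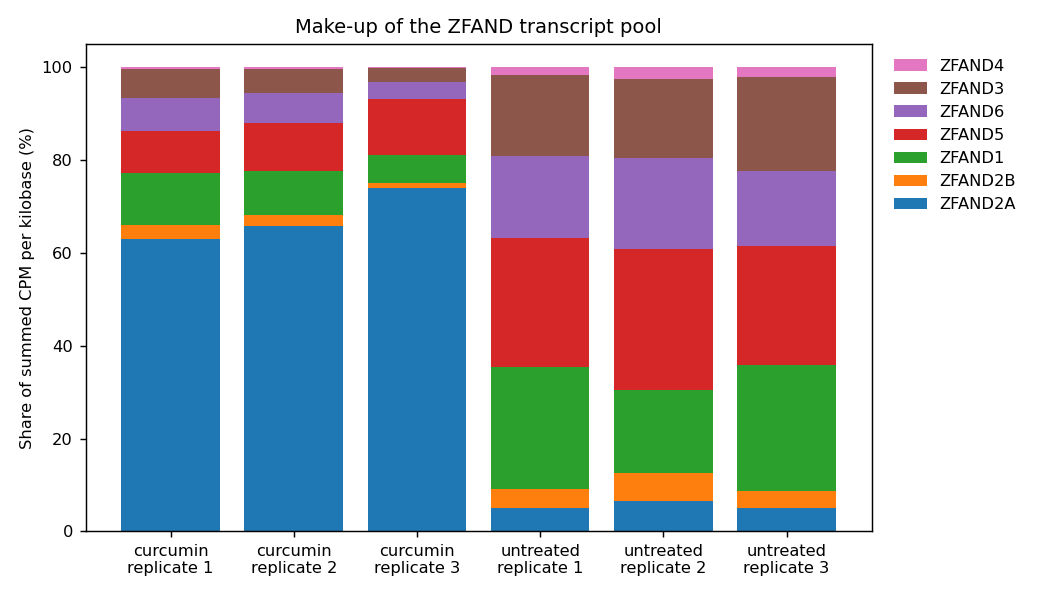
Share of each ZFAND gene in the family's summed CPM per kilobase of longest coding transcript (vertical axis, %), in 3 curcumin libraries (left) and 3 untreated libraries (right). ZFAND2A (lowest block) takes 62.9 to 73.9% of each curcumin bar and 5.02 to 6.52% of each untreated bar.

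Likeness of pattern was measured as the distance between centred log2 CPM profiles over the 6 libraries, which share libraries and depth. The 6 genes nearest to ZFAND2A were SV2A, HSPA1B, CDO1, RPL7P19, AC005520.1 and LDHC, at distances of 0.667 to 1.002. None of them had more than 4 counts in an untreated library, and 3 of them had 0 in all untreated libraries. They passed the filter through the curcumin libraries alone, and their distances are set by the prior count of 2 rather than by measured untreated levels, so no likeness to ZFAND2A and no fold is read from them. HSPA1B, an inducible HSP70 gene whose reads can be shared with a near-identical neighbour, had 54, 106 and 96 counts after curcumin and 0 in untreated cells. Among genes with a mean of at least 50 CPM, a limit chosen after seeing those results, the nearest were GADD45B (1.298), PPP1R15A (1.865), PUF60 (2.093), TBX3 (2.229), DUSP2 (2.539) and ARC (2.680). GADD45B, a stress-induced growth arrest gene, had 462, 535 and 843 CPM after curcumin and 23.1, 13.7 and 18.6 CPM in untreated cells. PPP1R15A, which encodes the phosphatase subunit GADD34, had 1425, 1596 and 2565 CPM after curcumin and 80.96, 44.05 and 101.2 CPM in untreated cells. In both, as in ZFAND2A, curcumin replicate 3 was the highest library. All of these genes but PPP1R15A averaged under 50 CPM in untreated cells and so passed the limit through the curcumin libraries. They were picked by distance to ZFAND2A over the same 6 libraries. A shared highest library is therefore built in, and nothing is read from it.

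For ZFAND5 the nearest genes were RYBP, a Polycomb-associated protein, and IER5, an immediate early response gene, at distances of 0.175 and 0.183. For ZFAND2B they were DGCR6L and PDZD11, for ZFAND1 PCED1A and HDAC5, for ZFAND6 INTS11 and CYB5R3, for ZFAND3 PACS2 and PAQR5, and for ZFAND4 B4GALT7 and RABEP1. These pairs lay at distances of 0.078 to 0.162.

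Of the 14 nearest tested neighbours on the chromosome, 1 on each side of each member, 3 were called higher, 3 lower and 8 not called, beside 27.2% higher and 28.9% lower over all tested genes. With library size alone 1 was called higher and 10 lower, beside 9.62% and 56.5% of all tested genes. The call of WASHC2C, beside ZFAND4 (log2 fold change 0.38), was lost when any 1 library was left out (edgeR adjusted p from 0.056 to 0.11), and with library size alone WASHC2C was called lower (-0.42). C7orf50, 13811 bases from ZFAND2A, had 59.01 CPM after curcumin and 33.3 CPM in untreated cells (log2 fold change 0.83 ± 0.18, edgeR adjusted p = 0.0034), a call lost with library size alone (adjusted p = 0.91). MICALL2, on the other side at 267706 bases, had 35.5 CPM after curcumin and 33.2 CPM in untreated cells and was not called (edgeR adjusted p = 0.71), but was called lower with library size alone (adjusted p = 0.020).

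Genes of pathways linked to ZFAND proteins, called partner genes here whether or not they bind one, were followed as 8 lists. Of their 150 tested genes 58 (38.7%) were called higher and 36 (24.0%) lower, beside 27.2% and 28.9% of all tested genes. Their median log2 fold change was 0.27, beside -0.04 over all tested genes. With library size alone 15 (10.0%) were called higher and 78 (52.0%) lower, near that scaling's 9.62% and 56.5% of all tested genes. The lists are described by their counts and medians only, and they were chosen with earlier results of these data known.

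Of the 30 tested genes of p97 and its cofactors 9 were called higher and 9 lower (median log2 fold change 0.11), that is 30.0% each way, close to the 27.2% and 28.9% of all tested genes. VCP itself had 220.2, 208 and 268 CPM after curcumin and 245, 342 and 216 CPM in untreated cells. The groups overlapped, and the log2 fold change was -0.21 ± 0.19 (edgeR adjusted p = 0.38). VCP was called lower with library size alone (-1.02, adjusted p = 5.8e-04). Cofactors moved in both directions. UFD1, which recruits p97 to ubiquitinated cargo, rose by 1.58 ± 0.22 (adjusted p = 2.0e-04), and the ubiquitin-binding cofactor UBXN1 rose by 1.63 ± 0.15 (adjusted p = 2.3e-05). UBXN2A fell by 1.18 ± 0.18, and the membrane protease RHBDD1 fell by 0.93 ± 0.19, and RHBDD1 was no longer called after removal of the length trend (adjusted p = 0.051). Without curcumin replicate 2 the list had 5 genes called higher, and with the length trend removed 3 called lower. Its counts with library size alone were 2 higher (6.67%, beside 9.62% of all tested genes) and 19 lower (63.3%, beside 56.5%).

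The regulatory cap of the proteasome was the list with calls in 1 direction. Of 22 genes, 14 (63.6%, beside 27.2% of all tested genes) were called higher and 0 lower (median 0.72 on the log2 scale). The ubiquitin receptor ADRM1 had 408, 426 and 447.5 CPM after curcumin and 139, 178 and 122 CPM in untreated cells, with a log2 fold change of 1.55 ± 0.16 (edgeR adjusted p = 4.6e-05). PSMD4, another ubiquitin receptor, rose by 1.28 ± 0.17. The balance rested on the scaling: with library size alone 3 were called higher and 3 lower, and the median was -0.09. Those were 13.6% each way, beside 9.62% and 56.5% of all tested genes, whose median was then -0.84. In the list 1 gene was called lower without untreated replicate 3, 1 with the length trend removed, 1 with no filter, and 2 with the library size taken without the 100 most abundant genes.

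Translocation into the endoplasmic reticulum and BAG6 quality control, the site at which ZFAND2B works, had 18 of 35 genes called higher (51.4%, beside 27.2% of all tested genes) and 5 lower (14.3%, beside 28.9%), with a median of 0.44. BAG6, a chaperone for stray membrane proteins, had 160, 162 and 152 CPM after curcumin and 60.7, 71.2 and 72.7 CPM in untreated cells (1.21 ± 0.14, edgeR adjusted p = 6.7e-05). The translocon subunit SEC61G rose by 2.06 ± 0.17 and the signal peptidase subunit SEC11A by 1.76 ± 0.15. The ubiquilin UBQLN2, a shuttle to the proteasome, fell by 1.92 ± 0.21. SEC62 fell by 0.999 ± 0.17 but was not called once the length trend was taken out (adjusted p = 0.11). Scaled by library size alone, 7 of the list were called higher and 15 lower. The 5 lower calls became 2, 3 and 2 without untreated replicate 1, curcumin replicate 1 and curcumin replicate 2. Lower calls over the whole table were then 3380, 3772 and 3369, beside 3964 with all libraries.

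Genes of stress granules, the structures that ZFAND1 helps to clear after arsenite, had 7 of 24 called higher (29.2%, near the 27.2% of all tested genes) and 9 lower (37.5%, beside 28.9%), with a median of -0.42. The RNA-binding proteins EWSR1 and PABPC1 rose by 1.46 ± 0.15 and 1.28 ± 0.16. G3BP1, the protein that nucleates stress granules, had 127, 108 and 84.98 CPM after curcumin and 230.1, 287 and 237 CPM in untreated cells. Its fall of 1.24 ± 0.18 (edgeR adjusted p = 2.5e-04) was not called with the length trend removed (adjusted p = 0.14). NUFIP2 fell by 1.48 ± 0.16 and USP10, the deubiquitinase that binds G3BP1, by 0.97 ± 0.13. The counts were 3 higher (12.5%, beside 9.62% of all tested genes) and 15 lower (62.5%, beside 56.5%) with library size alone. They were 7 higher and 5 lower of 24 with the length trend removed, where 25.2% of all tested genes were called higher and 22.6% lower.

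The NF-kB adaptors and other A20-type zinc finger genes, listed for ZFAND5 and ZFAND6, had more calls lower than higher. Of 13 genes, 1 was called higher (7.69%, beside 27.2% of all tested genes) and 7 lower (53.8%, beside 28.9%), with a median of -0.63. The ubiquitin ligase TRAF6 had 3.14, 3.10 and 6.80 CPM after curcumin and 21.01, 16.3 and 19.4 CPM in untreated cells, with no overlap (-2.12 ± 0.32, edgeR adjusted p = 3.3e-04). RABGEF1, which carries an A20-type finger, fell by 1.11 ± 0.17. The autophagy receptor TAX1BP1 rose by 0.91 ± 0.14, a call lost with library size alone (0.10, adjusted p = 0.56). Without curcumin replicate 2, 4 of the list were called lower and 3369 genes of the whole table, beside 7 and 3964 with all libraries. Scaling by library size alone gave 0 higher (beside 9.62% of all tested genes) and 11 lower (84.6%, beside 56.5%).

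The export of peroxisomal import receptors, the process in which ZFAND6 acts, was followed in 17 genes. Of these 6 were called higher (35.3%, beside 27.2% of all tested genes) and 4 lower (23.5%, beside 28.9%), with a median of 0.16. With library size alone 0 were called higher and 9 lower, and those 52.9% are near that scaling's 56.5% of all tested genes. The docking subunits PEX13 and PEX14 fell by 1.25 ± 0.19 and 1.41 ± 0.17. PEX16 rose by 0.97 ± 0.17 and the ubiquitin-conjugating enzyme UBE2D2 by 0.71 ± 0.14. With library size alone neither was called (adjusted p = 0.45 for PEX16 and 0.65 for UBE2D2), and UBE2D2 stood at -0.09. PEX5, the receptor itself, had 35.05 ± 7.28 CPM after curcumin and 47.7 ± 5.70 CPM in untreated cells (-0.44 ± 0.19, edgeR adjusted p = 0.069, n = 3 each). It was called lower without untreated replicate 2 (adjusted p = 0.046) and without curcumin replicate 1 (adjusted p = 0.042), with no filter (adjusted p = 0.029) and with library size alone (adjusted p = 3.2e-04).

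Of 6 genes for the decay of AU-rich transcripts, to which ZFAND5 also binds, 2 were called higher and 1 lower (median 0.03). Those 33.3% and 16.7% stand beside 27.2% and 28.9% of all tested genes. Only 1 was called higher when any library other than untreated replicate 2 was left out, and 2 were called lower without untreated replicate 2 or curcumin replicate 3. Scaling by library size alone gave 0 higher and 5 lower (83.3%), beside 9.62% and 56.5% of all tested genes. ZFP36L2 fell by 1.70 ± 0.23 and HNRNPD rose by 0.81 ± 0.18, not called with library size alone (adjusted p = 0.99). KHSRP rose by 0.42 ± 0.15, was not called when any library other than untreated replicate 2 was left out (adjusted p from 0.060 to 0.14), and turned to -0.39 with library size alone. Of the 3 heat shock factors, HSF1, the activator of ZFAND2A, had 309, 310.3 and 246 CPM after curcumin and 143.5, 128 and 159 CPM in untreated cells (1.009 ± 0.15, edgeR adjusted p = 3.6e-04). That call was lost with library size alone (0.21, adjusted p = 0.29). HSF2 fell by 0.85 ± 0.18, and HSF4, at 0.08 on the log2 scale, was not called.

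**Figure D5:**
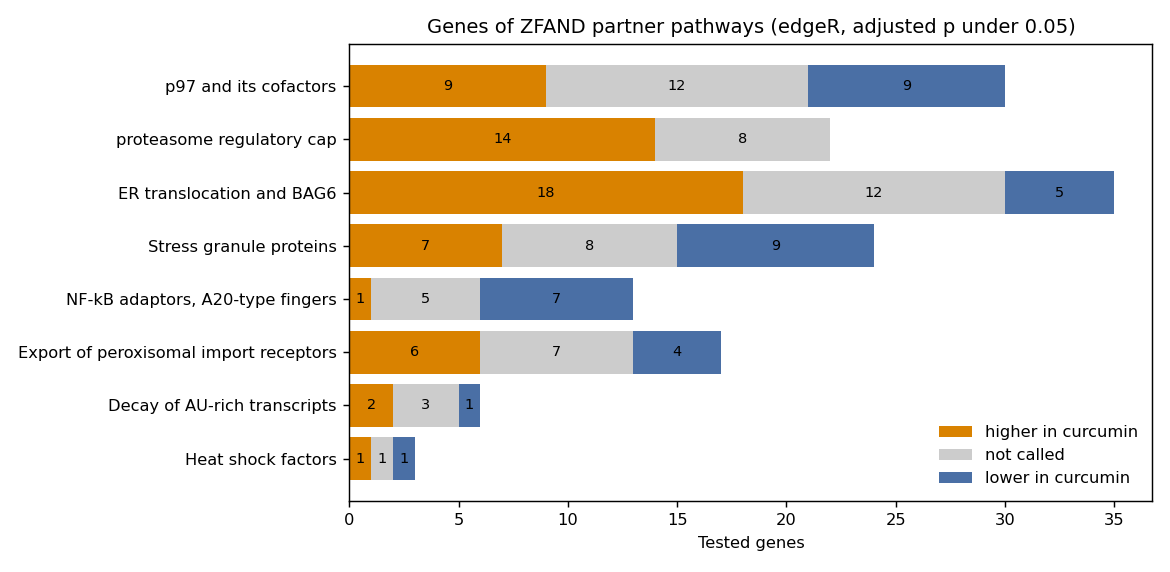
Number of tested genes (horizontal axis) in each of 8 lists of ZFAND partner genes that were called higher in curcumin (orange), not called (grey) or called lower in curcumin (blue) by edgeR with TMM scaling. The proteasome cap has 14 higher and 0 lower, and the NF-kB and A20-type list has 1 higher and 7 lower.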

How the data were processed

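Estimated counts per gene for 6 RNA-seq libraries were used as the authors deposited them, that is, expected counts, many not whole, with no scaling between libraries. Per the labels' protocols, libraries were made with a SMARTER mRNA-Seq kit. How reads were aligned, counted and annotated is not given in the sources used here. Mouse builds (GRCm38 and mm10) are listed in the submitters' processing notes, whereas all 35106 identifiers are human Ensembl ones and 0 are mouse. Of these, 35003 were found in GENCODE 29 (GRCh38), which gave positions and lengths.

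Counts were rounded to whole numbers (change at most 0.5), filtered with filterByExpr (minimum count 10, total 15) and given TMM factors. The quasi-likelihood test of edgeR 4.0.16 (R 4.3.3) was run as curcumin against untreated over all 6 libraries, with calls at an adjusted p (Benjamini-Hochberg) under 0.05. Standard errors come from the F statistic. The fit was tested on simulated data in which few genes changed, in equal numbers up and down. That setting is unlike these data and does not test the scaling. Replicates differed by more than sampling noise, with chi-square values of 11.1 to 71.2 per degree of freedom. A floor of 3 counts is 0.168 to 0.180 CPM after curcumin and 0.148 to 0.165 CPM in untreated libraries, for counting error only, since reads are not independent molecules.

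Members and lists were chosen with earlier results of these data known. Named genes are the 7 members, the 6 (ZFAND2A) or 2 (other members) genes at the smallest distance in log2 CPM with a prior count of 2, the 2 genes with the smallest adjusted p in each direction of each partner list, and VCP, BAG6, HSF1, G3BP1, TRAF6 and PEX5. Neighbours on the chromosome, the 50 CPM limit, the summed levels and shares under another scaling or length, and all motifs but the heat shock element were added later. Alternatives were RLE factors, library size alone, library size leaving out the 100 most abundant genes, no filter, a mean of 50 counts, no rounding, a fold of 1.5 (glmTreat), the replicate block, DESeq2 1.42.0, limma-voom (3.58.1), a loess trend with transcript length (span 0.3), protein-coding genes only, and each library left out. Protein sequences were not analysed here.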

Additional observations from a re-analysis of the deposited data

How the results depend on the processing

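Of 119 recomputed member fold changes (17 alternatives for each of 7 genes), 117 kept their sign and 102 moved by less than the spread between replicates. Those that moved further came from 3 settings. With library size alone the log2 fold changes were 5.23 for ZFAND2A, 0.50 for ZFAND2B, 0.084 for ZFAND1, 0.22 for ZFAND5, -0.12 for ZFAND6 (reversed), -0.42 for ZFAND3 and -1.30 for ZFAND4. With the library size taken without the 100 most abundant genes they were 0.94 for ZFAND2B, 0.52 for ZFAND1, 0.32 for ZFAND6, 0.017 for ZFAND3 and -0.85 for ZFAND4. With the length trend removed they were 5.07 for ZFAND2A, 0.93 for ZFAND2B, 0.42 for ZFAND1, 0.23 for ZFAND6 and -0.30 for ZFAND4. These settings change the scale itself, and which scale is nearer to RNA per cell was not tested. Members called higher numbered 1 (and 1 lower) with library size alone, 3 (and 1 lower) without the 100 most abundant genes and 2 against a fold of 1.5. Over all 13718 tested genes 1320 (9.62%) were higher and 7744 (56.5%) lower with library size alone. Without the 100 most abundant genes 2523 were higher and 5586 lower. Against a fold of 1.5 they were 2322 and 2335, beside 3732 and 3964 with TMM. Partner genes gave 15 higher and 78 lower with library size alone, and 31 higher and 19 lower against a fold of 1.5. Without the 100 most abundant genes 36 of them were higher and 52 lower, against 58 and 36 with TMM. The whole table shifted lower in that setting as well. With 1 library left out, ZFAND2A ranged from 5.69 to 6.24, ZFAND5 from 0.63 to 1.27, and the members called higher from 5 to 6. Genes of the whole table called higher then ran from 3253 to 3843. Of 288 recomputed counts for single lists, 234 stayed within 1.5 times. Levels, ratios and shares per kilobase moved with the length used.

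The replicate numbers share no stated origin: deviations of same-numbered libraries correlated at 0.04, 0.02 and 0.11. With the replicate block 3683 genes were higher and 4011 lower, and the log2 fold change of ZFAND2A was 5.99. Depth limits no member, the lowest having 79 counts in a library.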
